A study of Mus musculus with 4 samples.

Results

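Genes of the photoreceptor ribbon synapse were followed in whole retinas of adult mice with floxed Nrl, after induction of Cre. Nrl is the leucine zipper transcription factor of rod identity. The 36 genes were listed for their known roles at the photoreceptor terminal, with earlier results of these data known, and each was read from a single probe set, that of the highest mean level on the 4 arrays among those naming no other gene. Of the 36, 33 were measured among 19421 genes, and levels of Cacnb2, Vamp2 and Mpp4 were not analysed here. They fall into 6 groups by role, namely calcium entry and extrusion (4 measured), the ribbon and active zone scaffold (8), SNARE fusion machinery (6), vesicle proteins (6), the terminal scaffold (2) and trans-synaptic adhesion (7).

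The knockout group was Nrlflox/flox; CAG-CreERTM and the control group Nrlflox/+; CAG-CreERTM, with 2 arrays each. All mice thus carried at least 1 floxed Nrl allele and the tamoxifen-dependent Cre, and all were given 4-hydroxytamoxifen into the peritoneum once a day on postnatal days 42 to 44. Retinas were taken on postnatal day 63, 19 days after the last dose, and each array held RNA of 4 retinas pooled from 2 animals. The CAG promoter is active in most cell types, so Cre was not limited to rods, and the controls could lose 1 of their alleles.

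Rods and cones signal through a terminal in which a plate-like ribbon holds rows of glutamate-filled vesicles at the release site. In darkness an L-type calcium channel under the ribbon stays open and drives steady release, and light slows it. Fusion uses SNARE proteins and complexins, some of which are particular to ribbon synapses, and adhesion proteins of the terminal reach across the cleft to receptors of bipolar cells. Many of the genes listed also serve synapses of other retinal neurons, among them the ribbon synapses of bipolar cells. Whole retina holds RNA of all these cells.

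No gene of the 33 was called between knockout and control at a limma adjusted p under 0.05, in a comparison that called 39 of 19421 genes, or 0.201% (27 higher, 0.139%, and 12 lower, 0.0618%). With the replicate number as a block, which also follows the sex of the pools, 8 genes were called over the array and still 0 of the 33. A count of 0 among 33 is at that background share. The smallest adjusted p among the synapse genes was 0.464, and 2 of 33 (6.06%) had an unadjusted p under 0.05, against 7.07% of all genes. Their changes lay between −0.44 and 0.28 on the log2 scale, that is between 73.6% and 122% of the control signal. Positive values were found for 17 genes and negative ones for 16, and their median was 0.0016, beside −0.0026 for the whole array.

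The width of each gene's interval limits what this comparison could have missed. The unadjusted 95% interval of the log2 fold change stayed within a 1.5-fold change in either direction for 31 of the 33 synapse genes, against 87.8% of all genes. It stayed within a 2-fold change for all 33, against 98.8% of all genes. The genes that reached past 1.5-fold were Cabp4, with an interval of −0.72 to −0.16, and Lrit2, with −0.74 to 0.18. Among the 39 called genes of the array the smallest change was 0.88, so differences of the size measured in the synapse genes were below those called with 2 arrays a group.

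**Figure D1:**
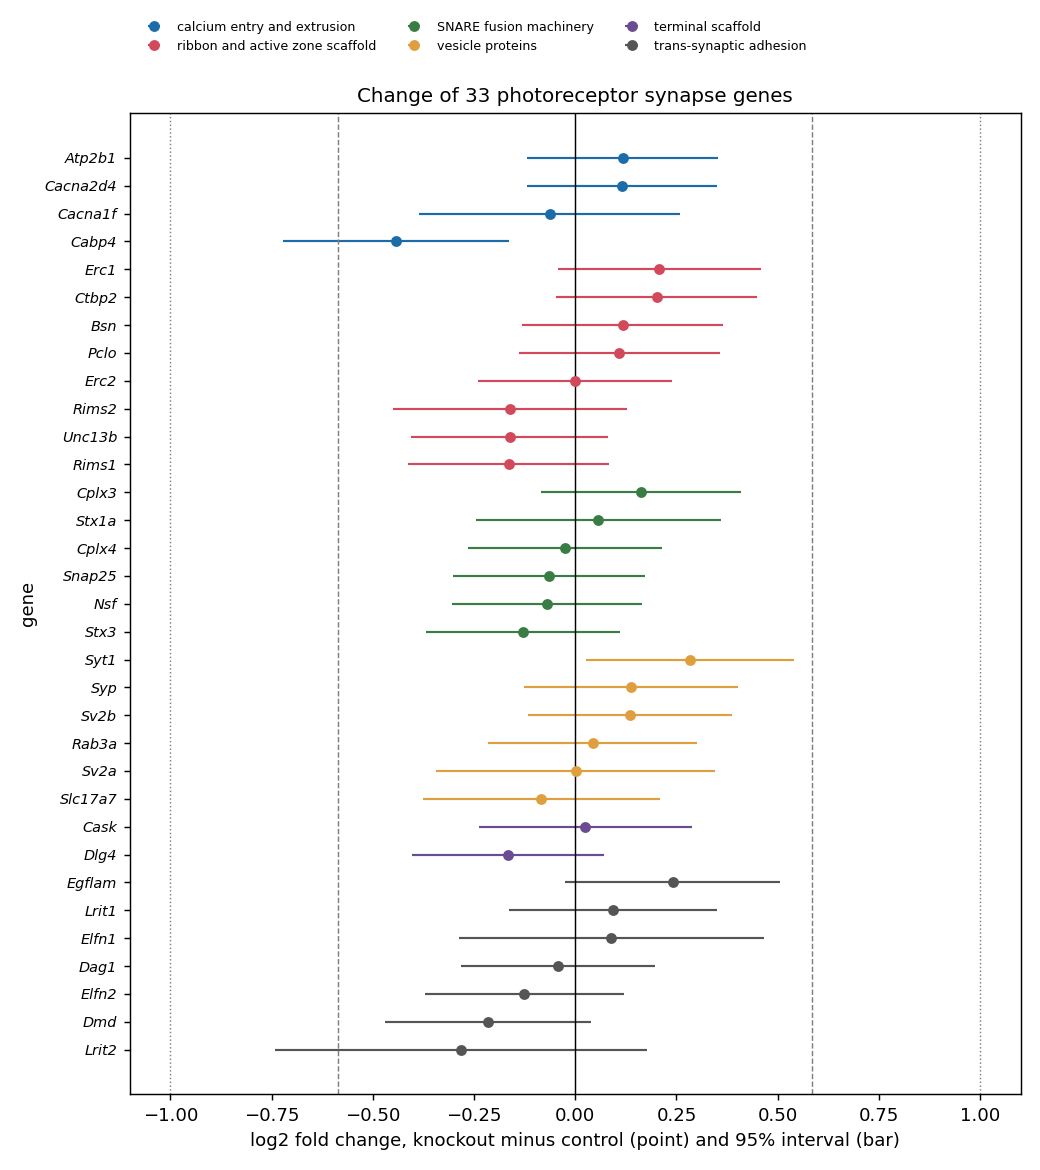
Log2 fold change (horizontal axis, knockout minus control) of 33 synapse genes, 1 row each, coloured by group, with points for the estimate and bars for the 95% interval of the limma fit on 2 arrays per genotype. Dashed lines mark a 1.5-fold and dotted lines a 2-fold change. The intervals of Cabp4 and Lrit2 cross the dashed line on the left, and no interval reaches a dotted line.

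For the retina as a whole, the medians of the 4 arrays lay between 5.99 and 6.04. Nrl had levels of 7.57 and 7.05 in the knockout pools, against 8.21 and 8.13 in the control pools. Its log2 fold change was −0.86 (SE 0.18, limma adjusted p = 0.289), or 55.2% of control, and it did not pass. The 7 measured rod markers had levels of 7.05 to 11.34 on the knockout arrays and 8.13 to 12.65 on the control arrays, so rod transcripts were present in both groups. Replicate 1 of both genotypes had Xist at 4.07 and 4.09 and replicate 2 at 10.66 and 10.47, so the sex of the pools followed the replicate number, not the genotype. With 4 arrays an exact permutation test of a single value cannot go below p = 0.333.

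Of the 7 rod markers, Gnat1 and Reep6 fell, with or without the replicate block, and 5 did not pass. Each knockout pool was below each control pool in all 7, and in 18.4% of all genes. Summed on the linear scale, the 7 rod markers had a signal of 7371 and 7654 in the knockout pools, against 16301 and 15888 in the control pools. Without Gnat1 the sums were 6668 and 6789 in knockout, against 9883 and 9769 in control. The 33 synapse genes had summed signals of 18444 and 18179 in the knockout pools, against 18401 and 17931 in the control pools, so these ranges overlapped. A few bright probe sets carry such sums, and the difference between the lists was not tested. In bulk tissue, fewer cells of a type and less RNA per cell cannot be told apart, for rod markers and synapse genes alike.

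The calcium group held the gene with the smallest p of all members. Cabp4, a calcium-binding protein that tunes the opening of the photoreceptor calcium channel, had levels of 6.55 and 6.62 in the knockout pools, against 6.92 and 7.14 in the control pools. Each knockout pool was below each control pool, by 0.37 in replicate 1 and 0.52 in replicate 2. The log2 fold change was −0.44 (SE 0.12, limma adjusted p = 0.464), or 73.6% of control, and it did not pass.

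The channel that Cabp4 acts on was close to equal between genotypes. Cacna1f, the pore-forming subunit Cav1.4, had 7.39 and 7.18 in knockout and 7.47 and 7.23 in control, so the 2 replicates differed more from each other than the genotypes did. Its log2 fold change was −0.063 (95% interval −0.38 to 0.26). Cacna2d4, the accessory α2δ4 subunit that helps the channel reach the terminal, had 8.41 and 8.35 in knockout against 8.27 and 8.26 in control, a difference of 0.11 (adjusted p = 0.899). Atp2b1, a plasma membrane pump that clears calcium, had 10.38 and 10.41 in knockout and 10.30 and 10.25 in control (0.12, adjusted p = 0.895). In both genes the genotypes did not overlap, but the gap was near 1 SE.

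The 8 genes of the ribbon and active zone were divided between small positive and small negative differences, with a median of 0.054. Ctbp2, whose locus encodes the ribbon protein RIBEYE as well as a transcriptional co-repressor, had 7.39 and 7.47 in the knockout pools, against 7.28 and 7.18 in the control pools. The knockout pools were higher by 0.11 in replicate 1 and 0.29 in replicate 2, a mean difference of 0.20 on the log2 scale (SE 0.10, adjusted p = 0.780). No source used here says which of the locus's transcripts the probes detect.

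Since Crx and Nrl act together on many photoreceptor promoters, the windows from 250 bases before to 50 bases after each RefSeq start were searched for TAATCC, the core letters of the CRX motif, and TGCTGA, part of the NRL motif, on both strands. Of the 36 genes, 29 had a window, 44 windows in all (GRCm38.p6), and Mpp4, whose level was not analysed, is among them. TAATCC or its reverse complement GGATTA was in 10 of the 44 (22.7%), against 7.06% of all 32851 windows. TGCTGA or TCAGCA was in 7 (15.9%), against 19.5%. By gene these are 8 and 6 of the 29. Windows of 1 gene can overlap, as those of Lrit2 do, so a site can be counted more than once. A match describes letters and does not show binding. Ctbp2 has 2 windows, and the downstream one holds GGATTA with its first letter 121 bases before the start. The 250 bases before that start are shown because Ctbp2 carries the ribbon protein, with the match in capitals.
Ctbp2, chr7:133015248-133015497, minus strand: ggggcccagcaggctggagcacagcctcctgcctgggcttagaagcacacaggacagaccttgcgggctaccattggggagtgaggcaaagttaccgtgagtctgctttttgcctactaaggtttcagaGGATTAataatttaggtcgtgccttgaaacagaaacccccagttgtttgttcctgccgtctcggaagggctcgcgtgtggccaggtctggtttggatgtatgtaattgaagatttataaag

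Other large scaffold proteins of the active zone had equally small differences. Erc1, an ELKS protein that binds RIM, had 6.81 and 6.90 in the knockout pools, against 6.70 and 6.59 in the control pools (0.21, SE 0.10, adjusted p = 0.771). Of its 3 probe sets another had 0.17 and the third −0.092, so the direction was not shared by all. Bsn and Pclo, which encode bassoon and piccolo, giant proteins that tether the ribbon and organise the release site, had 0.12 and 0.11. Erc2, the relative of Erc1 also called CAST, had −0.0012.

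RIM and Munc13 proteins prime vesicles for release. Rims1 had 7.26 and 7.39 in the knockout pools, against 7.49 and 7.50 in the control pools (−0.16, SE 0.10, adjusted p = 0.832). Unc13b, which encodes Munc13-2, had 8.13 and 8.06 in knockout and 8.30 and 8.22 in control (−0.16, SE 0.10, adjusted p = 0.831). In both, each knockout pool was below each control pool. Rims2, the main RIM gene of photoreceptors, had 9.51 and 9.70 in knockout and 9.69 and 9.84 in control, which overlapped (−0.16, SE 0.12, adjusted p = 0.865).

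Among the fusion genes, the retinal complexins showed no called difference. Complexins clamp and assist the SNARE complex, and Cplx3 and Cplx4 are the forms of ribbon synapses. Cplx4 had 11.46 and 11.45 in the knockout pools, against 11.53 and 11.44 in the control pools, a log2 fold change of −0.025 with a 95% interval of −0.26 to 0.21. Cplx3 had 8.96 and 9.03 in knockout, above 8.78 and 8.89 in control (0.16, SE 0.10, adjusted p = 0.834). Stx3, the syntaxin that ribbon synapses use in place of syntaxin 1, had 9.67 and 9.66 in knockout and 9.75 and 9.84 in control (−0.13, SE 0.099, adjusted p = 0.869). Stx1a, the syntaxin of conventional synapses, had 0.057, and Snap25 and the SNARE-recycling ATPase Nsf had −0.064 and −0.070.

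In the vesicle group 5 of 6 genes lay above 0, with a median of 0.089. Syt1, the calcium sensor of fast release in most neurons, had 11.08 and 11.04 in the knockout pools, against 10.85 and 10.69 in the control pools. All knockout values were above the controls, and the log2 fold change of 0.28 (SE 0.11, adjusted p = 0.656) corresponds to 122% of control. It was the other gene with an unadjusted p under 0.05. Sv2b, a vesicle glycoprotein, had 10.12 and 9.99 in knockout and 9.95 and 9.89 in control (0.14, adjusted p = 0.873), and Syp, which encodes synaptophysin, had 0.14.

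Slc17a7 encodes VGLUT1, which loads glutamate into the vesicles of rods, cones and bipolar cells. It had 7.98 and 7.74 in the knockout pools, against 7.90 and 7.99 in the control pools, so the groups overlapped, with a difference of 0.082 in replicate 1 and −0.25 in replicate 2. The log2 fold change was −0.083 (95% interval −0.38 to 0.21). Sv2a and the vesicle GTPase gene Rab3a stood at 0.0016 and 0.043.

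Both measured genes of the terminal scaffold encode membrane-associated guanylate kinases. Dlg4, which encodes PSD-95 and in the outer retina marks photoreceptor terminals, had 7.37 and 7.33 in the knockout pools, below 7.54 and 7.49 in the control pools. The difference was nearly the same in the replicates, −0.17 and −0.16, but did not pass (−0.17, SE 0.097, adjusted p = 0.819). Cask had 8.84 and 8.82 in knockout, inside the control values of 8.89 and 8.71 (0.025, adjusted p = 0.986).

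The adhesion genes reach from the terminal to the ON bipolar dendrite. Elfn1, the protein of rod terminals that binds the bipolar glutamate receptor mGluR6, had 7.17 and 7.37 in the knockout pools, against 6.99 and 7.37 in the control pools. The values paired off by replicate number and not by genotype, and the log2 fold change was 0.090 (SE 0.16, adjusted p = 0.966). Elfn2, its relative at cone terminals, had −0.13 (adjusted p = 0.888), with both knockout pools below both control pools.

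Dystrophin and dystroglycan form a complex in the photoreceptor terminal, to which the matrix protein pikachurin, encoded by Egflam, binds. Dmd, the dystrophin gene, had 9.54 and 9.65 in the knockout pools, below 9.76 and 9.86 in the control pools (−0.22, SE 0.10, adjusted p = 0.764). Egflam had 7.64 and 7.60 in knockout, above 7.29 and 7.47 in control (0.24, SE 0.11, adjusted p = 0.747). Dag1, the dystroglycan gene, had −0.043. These 3 partners therefore gave differences of unlike sign, and the interval of each included 0.

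Lrit1 and Lrit2 are neighbouring genes for leucine-rich repeat proteins of the retina, and LRIT1 is found at photoreceptor synapses. Lrit2 had 9.13 and 8.59 in the knockout pools, against 9.23 and 9.05 in the control pools. The low value of knockout replicate 2 set its difference, which was −0.46 in replicate 2 and −0.10 in replicate 1 (log2 fold change −0.28, SE 0.19, adjusted p = 0.850). Without that pool the change was −0.0098. Lrit1 had 7.40 and 7.35 in knockout and 7.21 and 7.36 in control (0.092, adjusted p = 0.934).

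These neighbours, with Sv2b, were the genes of the 36 with CRX and NRL letters in 1 window. By gene this is 3 of the 29 with a window, and by window 4 of 44 (9.09%), against 1.36% of all windows. The 2 Lrit2 windows overlap and hold the same matches, so this stretch is counted more than once. The 250 bases before the starts of Lrit1 and Lrit2 are shown because they hold letters of both motifs, with the matches in capitals. In Lrit1, TGCTGA begins 80 and 8 bases before the start and TAATCC 50 bases before it. In Lrit2, TGCTGA begins 56 bases and GGATTA 37 bases before the first of 2 starts that lie close together. No matches overlapped.
Lrit1, chr14:37054580-37054829, plus strand: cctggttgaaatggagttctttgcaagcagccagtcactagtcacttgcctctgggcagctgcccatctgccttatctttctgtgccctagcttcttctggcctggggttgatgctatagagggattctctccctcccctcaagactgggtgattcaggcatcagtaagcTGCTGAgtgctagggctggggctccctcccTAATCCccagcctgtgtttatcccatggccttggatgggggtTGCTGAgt
Lrit2, chr14:37067779-37068028, plus strand: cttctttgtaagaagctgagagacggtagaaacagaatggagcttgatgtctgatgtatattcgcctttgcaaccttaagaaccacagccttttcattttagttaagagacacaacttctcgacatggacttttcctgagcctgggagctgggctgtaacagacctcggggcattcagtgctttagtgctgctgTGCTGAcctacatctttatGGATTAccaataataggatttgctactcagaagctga

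Taking the 33 genes array by array, the genotypes did not overlap in 20 (60.6%), with 11 genes higher and 9 lower in both knockout pools. Over all genes the groups did not overlap in 35.4% (17.0% higher, 18.4% lower), and in 38.8% of genes at or above the 50th percentile of mean signal, which holds 32 of the 33. The sizes were small, though a little above those over all genes. The median absolute change was 0.12 in the synapse genes and 0.092 over all genes, with a median SE of 0.10 and 0.11. The share is described here and was not tested.

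**Figure D2:**
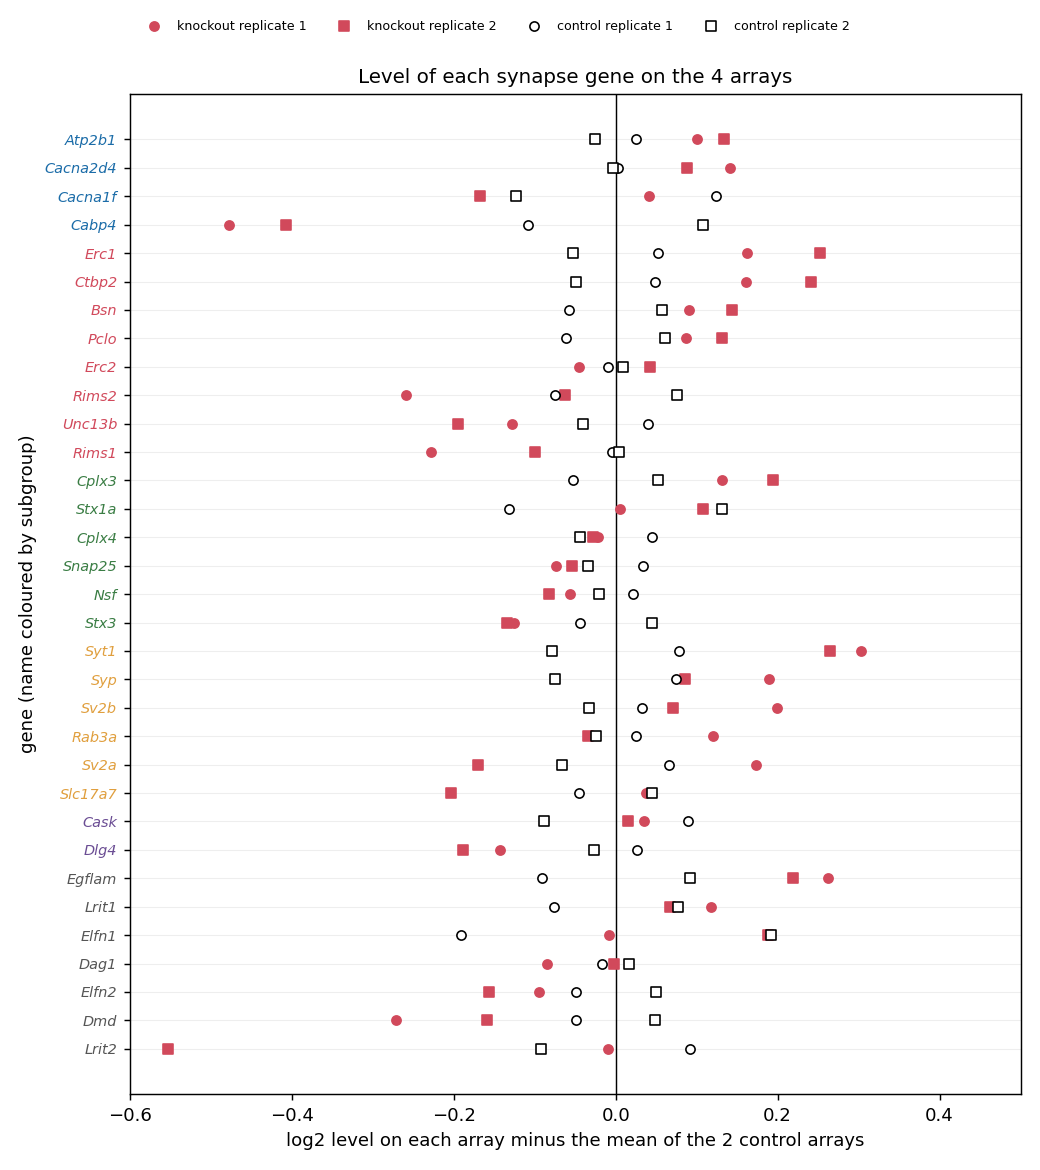
Log2 level of each of 33 synapse genes (rows, names coloured by group) on each array, minus that gene's mean over the 2 control arrays (horizontal axis). Filled red symbols are knockout pools and open symbols control pools, circles replicate 1 and squares replicate 2. Both Cabp4 knockout pools stand apart on the left, 1 Lrit2 knockout pool is lowest of all points, and most other genes keep within 0.3 of the control mean.

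The replicates, which differ in sex, gave another view of the same array values. Where the genotypes do not overlap, both replicates must share a sign and their gap cannot exceed that between genotypes. The counts that follow are therefore not independent of the count of genes without overlap. Knockout minus control had the same sign in both replicates in 24 genes, 11 positive and 13 negative, and opposite signs in 9 (27.3%), against 44.9% of all genes. The difference between replicates 2 and 1 was larger than that between genotypes in 11 of 33 genes (33.3%), against 51.1% of all genes. The widest such gap was in Lrit2, at −0.36 for replicate 2 minus 1, followed by Elfn1 at 0.29, Sv2a at −0.24 and Cacna1f at −0.23. In these 4 genes the replicates, and with them the sexes, differed by more than the genotypes.

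**Figure D3:**
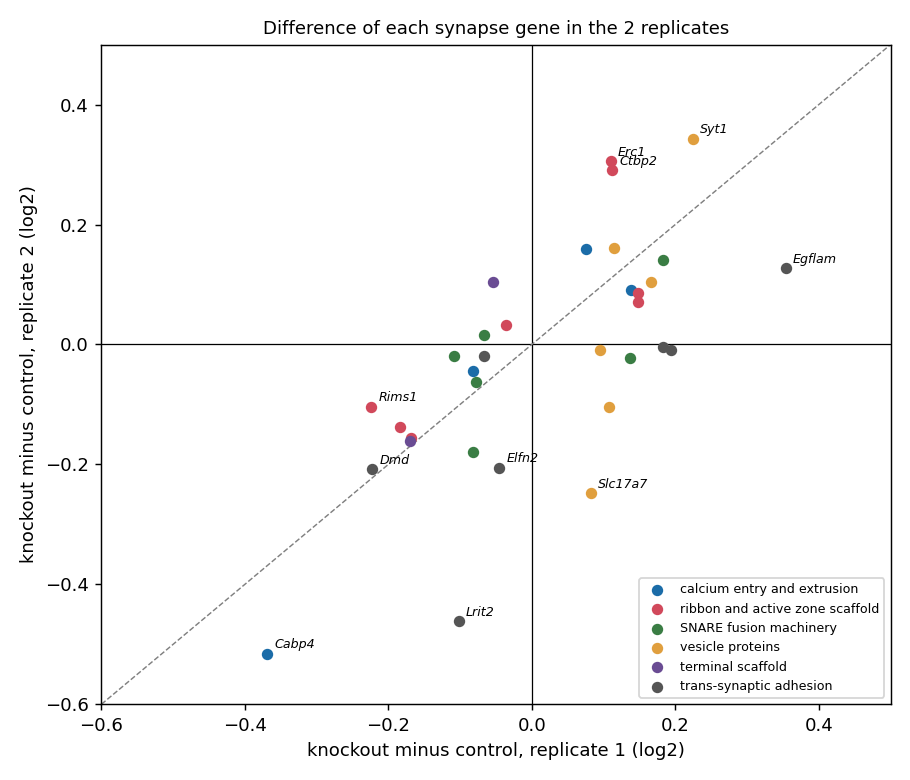
Knockout minus control (log2) of each synapse gene in replicate 1 (horizontal axis) and replicate 2 (vertical axis), coloured by group, with a dashed line where they are equal. Cabp4 is the lowest point in both replicates, Syt1, Egflam, Erc1 and Ctbp2 are positive in both, and Lrit2 leaves the line through replicate 2.

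Of 79 further genes of the same families, 72 were measured, and none was called (0 higher, 0 lower, median −0.023), beside 0.201% of all genes called. An unadjusted limma p under 0.05 was found for 7 of the 72 (9.72%), against 7.07% of all genes. Among these 72, adjusted p values were lowest for Lin7b, a small PDZ scaffold protein that joins CASK in one complex. It had 7.93 and 7.75 in the knockout pools, above 7.19 and 7.33 in the control pools (0.58, SE 0.12, adjusted p = 0.270). Doc2b, a calcium sensor of spontaneous and asynchronous release, had 7.71 and 7.85 in knockout, above 7.38 and 7.30 in control (0.45, SE 0.11, adjusted p = 0.372). Lin7b and Doc2b thus had differences as large as that of Cabp4, in the opposite direction.

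The remaining relatives were chosen as those with the smallest p in each list. Slc1a2, a glutamate transporter of cones, bipolar cells and glia, had 8.62 and 8.73 in knockout and 8.30 and 8.27 in control (0.39, adjusted p = 0.464). Unc119, a lipid-binding trafficking protein of photoreceptors that is also found at their ribbons, had 8.32 on both knockout arrays, below 8.69 and 8.64 in control (−0.35, adjusted p = 0.504). Each pair of pools was apart from the other in both genes. Stxbp2, of the Munc18 family, had 7.01 and 6.89 in knockout and 6.69 and 6.60 in control (0.30, adjusted p = 0.636). Ppfia2, the active zone protein liprin-α2, had 9.34 and 9.44 in knockout and 9.12 and 9.10 in control (0.28, adjusted p = 0.649).

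Channel subunits related to those of photoreceptors were not called either. Cacna2d3 had 7.70 and 7.47 in knockout and 8.02 and 7.69 in control, which overlapped (−0.27, adjusted p = 0.808). Cacnb4 had 7.30 and 7.25 in knockout, below 7.39 and 7.49 in control (−0.16, adjusted p = 0.831). Of the 15 measured channel and sensor relatives none had an unadjusted limma p under 0.05, against 7.07% of all genes.

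Across the cleft, the 11 genes listed for the ON bipolar complex had no call, beside 0.201% of all genes called, and a median of −0.062. The list did not hold Gnb3, a G protein subunit gene counted with the cone markers. Gnb3 was called higher (1.59, limma adjusted p = 0.0366). An unadjusted limma p under 0.05 was found for 3 of the 11 (27.3%), against 7.07% of all genes. These shares were not tested against each other. Rgs11, which shuts off the bipolar G protein, had 6.19 and 6.28 in the knockout pools, above 5.80 and 5.77 in the control pools (0.45, SE 0.099, adjusted p = 0.317). Lrit3, needed to place the bipolar channel TRPM1 and counted in both lists, had 7.17 and 6.90 in knockout and 6.75 and 6.56 in control (0.38, SE 0.13, adjusted p = 0.641). In the opposite direction, Rgs9bp, an anchor of RGS proteins, was chosen after its value was seen. It had 6.41 and 6.32 in knockout, below 6.56 and 6.78 in control (−0.31, SE 0.12, adjusted p = 0.659). Levels in whole retina do not tell whether bipolar cells or photoreceptors held the transcripts of this list. The 7 rod markers had a median of −0.82 with 2 called lower, and the 9 cone markers a median of −0.14 with 2 called higher (Gnat2 and Gnb3, neither with the replicate block). The cone markers had summed linear signals of 6469 and 6200 in knockout, above 5334 and 4656 in control, so their sum and their median differed in sign.

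Of 8 reactive glia markers, 3 rose (A2m, Osmr and Stat3) and 5 did not pass. Each knockout pool was above each control pool in all 8, and in 17.0% of all genes. Of 8 microglia markers, 2 rose (Ctss and Tyrobp) and 6 did not pass, among them Tmem119, a marker of resident microglia, at −0.40 (adjusted p = 0.403). With the replicate block neither the 3 reactive glia nor the 2 microglia markers that rose were called. The summed linear signal was 944 and 1015 in knockout against 485 and 459 in control for reactive glia, and 1128 and 1042 against 557 and 554 for microglia. Summed signals of bipolar markers were 2188 and 2124 in knockout and 2305 and 2171 in control, and those of amacrine markers 1235 and 1210 against 1308 and 1315. Horizontal cells, whose processes enter the photoreceptor terminal, had marker sums of 906 and 902 in knockout, below 1084 and 1032 in control. All 6 of their markers had negative differences and none was called (median −0.18; Calb1, the calcium-binding protein calbindin, −0.37, adjusted p = 0.475). Sums were 1773 and 1740 against 1947 and 1803 for ganglion cell markers and 1602 and 1564 against 1547 and 1538 for Müller glia markers. The part of these cell types in the level of any synapse gene was not tested.

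**Figure D4:**
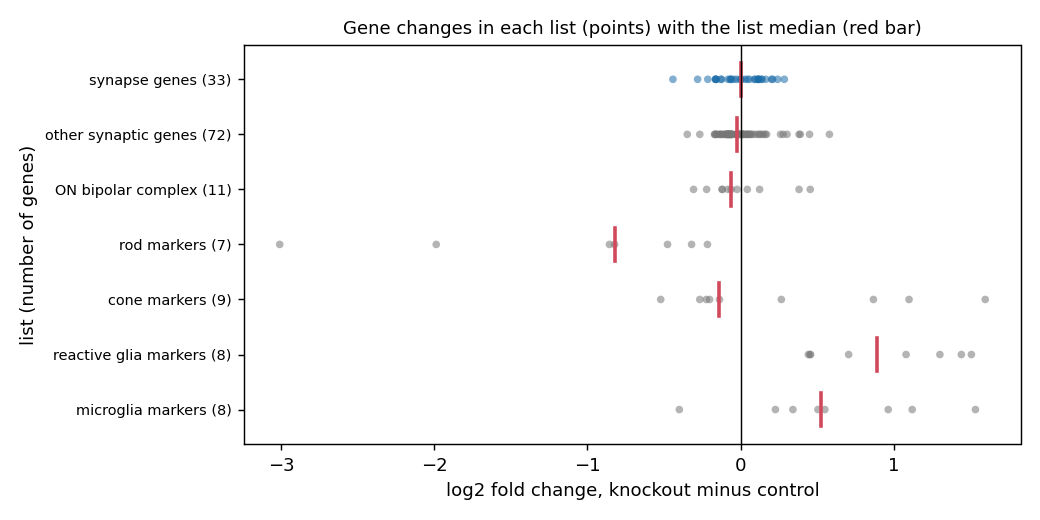
Log2 fold change (horizontal axis, knockout minus control) of single genes (points) in 7 lists, with the list median as a red bar and the number of genes in brackets. Synapse genes, other synaptic genes and genes of the ON bipolar complex lie near 0, with medians of 0.0016, −0.023 and −0.062, while rod markers lie below 0 and reactive glia markers above it.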

How the data were processed

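Whole-retina RNA was hybridised to 4 arrays. The deposited table holds log2 values of 21897 probe sets. The log2 scale was read from their range, 1.34 to 12.75. Per the submitters' processing notes, affy and limma were used; no source used here gives versions, background correction or normalization. Detection values were not used, so low levels may be background, and the number of arrays limits precision.

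The platform annotation gave 20877 probe sets 1 symbol, 175 several and 845 none; gene IDs changed 0 symbols (36 IDs not matched). The probe set with the highest mean stood for each of 19421 genes, 778 of which had several. The comparison used limma 3.58.1 (R 4.3.3), with two-sided moderated tests after lmFit and eBayes, a model of genotype alone, and p-values adjusted by Benjamini-Hochberg over every gene. Fold changes are knockout minus control, and intervals use the moderated SE. The steps were tested on simulated data without an effect of sex or replicate. The planted changes were larger than any measured in the synapse genes. Replicates are pools of different animals, and the pools of each genotype differed in sex. The p-values rest on the spread between these pools, which limma moderates toward a value shared over all genes. That spread includes any difference between the sexes.

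Members and lists were chosen with earlier results of these data known. Level values are given for the 12 members with the smallest p, the 2 with the smallest p in each group, and Cacna1f, Ctbp2, Slc17a7, Cabp4, Cplx3, Cplx4, Stx3, Elfn1, Dlg4 and Dmd whatever their p, and for the 2 with the smallest p of each list of relatives. Values of Cacna2d4 and Lrit1, named outside this rule, were chosen after they were seen. Alternatives were the replicate block, quantile normalization, a signal filter, probe set means, a variance trend and leaving out each pool. Promoter sequences are RefSeq's, GRCm38.p6.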

Additional observations from a re-analysis of the deposited data

How the results depend on the processing

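The 33 synapse genes had 0 calls under all 9 alternatives (limma, lowest adjusted p 0.179, for Cabp4 after genes below the 50th percentile of signal were dropped, which also removed 1 member). The number of genes called over the whole array did depend on the setting. It was 39 as reported, 8 with the replicate block, 89 with the signal filter, 128 with a variance trend, and 0 to 11 with 1 pool left out. In those 4 fits the lone pool is assumed to vary like the other group, and with so few calls over the array, 0 synapse calls there says little. The replicate numbers are not said to pair the pools. Deviations of same-numbered pools from their group means had r = 0.24 across genes, and the block called 0 synapse genes.

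Group medians moved with single pools. Leaving out each pool in turn gave −0.047 to 0.089 for calcium genes, 0.019 to 0.087 for the active zone, 0.018 to 0.18 for vesicle genes and −0.10 to −0.0024 for adhesion genes. The SNARE median was −0.0040 after quantile normalization, against −0.044. Of 270 recomputed changes of 30 named genes, 262 kept their sign and side of the threshold, and 8 changed sign. Cplx4 had 0.033 after quantile normalization. With 1 pool left out, Cplx4 ranged from −0.070 to 0.019, Cacna1f from −0.19 to 0.061, Slc17a7 from −0.20 to 0.037, Cask from −0.064 to 0.11 and Elfn1 from −0.10 to 0.28. Lrit2 ranged from −0.55 to −0.0098. The cause was not tested, and none of these was called.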
